A study of Arabidopsis thaliana with 88 samples.

Results

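The chloroplast carries its own small genome, and the RNA read from it was followed through 3′ mRNA libraries of Arabidopsis roots and shoots. Its members were the loci whose identifier starts with ATCG, which are 114 of the 33681 loci quantified. They comprised 74 protein-coding loci with a name, 29 tRNA loci, 4 rRNA loci, 6 loci left unnamed and ycf3, the name of which came from the study. The plants, all of the Col-0 background, were of 5 genotypes, each as neo-tetraploid (4x) and as diploid (2x): sos3-2, esb1-1, the double mutant rhd6-3/rsl1-1, a line labelled chx25-3, and wild type (WT). The genes behind the mutants act in salt tolerance (SOS3, a calcium sensor), in the Casparian strip of the endodermis (ESB1) and in root hair initiation (RHD6 and RSL1), and CHX25 belongs to a family of cation/proton exchangers. The paper writes chx23-4 where the labels read chx25-3, and the study's line list marks the 2x sos3-2 line as unverified. The 4x mutants were derived with colchicine as single lines, while the study's line list traces the WT lines of both ploidies to an earlier study. Shoots and roots were taken from 5-week-old plants on soil, with 1 plant per library, and further roots from 2-week-old plants on plates with sucrose, pooled per library. The 86 grouped libraries formed 30 groups, 26 of them of 3 libraries, and the 4 groups of 2 were 4x chx25-3 in soil shoots and in soil roots and 2x sos3-2 and 2x rhd6-3/rsl1-1 in plate roots.

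Chloroplasts of leaves transcribe genes for the photosynthetic complexes with a bacterial-type RNA polymerase, the core of which is encoded in the chloroplast itself and is steered by sigma factors from the nucleus. A phage-type polymerase, also from the nucleus, transcribes many of the housekeeping genes, such as those for the polymerase core, ribosomal proteins and accD. Roots hold non-green plastids, which make fatty acids, starch and amino acids but little of the photosynthetic apparatus. Chloroplast mRNAs do not end in the stable poly(A) tail of nuclear mRNAs, and short A-rich tails mark them for decay. The libraries were primed with oligo-dT, so that the values describe the molecules this priming captured and not the whole chloroplast RNA. Many chloroplast genes are transcribed together, so that a read belongs to the locus where it fell, not to a separate mRNA.

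Runs of A inside or just behind the genes are shown first, because oligo-dT can prime on them and because the captured level of a member is set against their length below. The sequences below are windows of the sense strand from the RefSeq plastid genome (TAIR10.1), 5′ to 3′, with the longest run of A in capitals. They were looked for in each gene model and in the 200 bases behind it. The first 4 have runs of 13 or 14 bases, the next 3 are photosynthetic members of high interest with runs of 7 to 9, and psbE and petG have runs of 3.
rpoA: aacctaagAAAAAAAAAAAAAAcaaaagaa
accD: ttttttgatAAAAAAAAAAAAAtttttgag
psbM: tttactatcAAAAAAAAAAAAAgatttcaa
ndhC: tacaataatAAAAAAAAAAAAAgtaaaaaa
atpE: agctgacgtgtAAAAAAAAAgaatgtataa
psaJ: agtaatagaacgAAAAAAAgtgttgctagg
rbcL: aatttagatagAAAAAAAActcttcaataa
psbE: gggagccctcgtccAAAcgagtattttaca
petG: tgatacaatctatgAAAtcacgctctgtag

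The run of rpoA, which encodes the alpha subunit of the chloroplast RNA polymerase, counts 14 bases and lies inside the gene (Pltd:78087-78116, minus strand). That of accD, a subunit of acetyl-CoA carboxylase in fatty acid synthesis, counts 13 bases and also lies inside the gene (Pltd:57363-57392, plus strand). Those of psbM, a small photosystem II subunit (Pltd:28665-28694, minus strand), and of ndhC, a subunit of the NADH dehydrogenase-like complex (Pltd:49951-49980, minus strand), count 13 bases each and lie behind the genes. The remaining windows lie at Pltd:52225-52254 (atpE, minus), Pltd:67216-67245 (psaJ, plus), Pltd:56530-56559 (rbcL, plus), Pltd:64152-64181 (psbE, minus) and Pltd:66211-66240 (petG, plus). Of these, only the window of psbE lies inside its gene. A run of 10 or more A (AAAAAAAAAA, sense strand) was present in 12 of the 74 protein-coding members, or 16.2%, against 57 of 308 windows of 1000 bases over both strands of the plastid genome, or 18.5%. These shares are not matched, since the length searched differs between members and the windows also cover sequence outside the genes.

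Levels are given as CPM, the reads of a locus per 1000000 reads assigned to all loci. A 3′ library gives about 1 read per captured molecule, so that CPM is not divided by gene length, and levels per length are given beside it where genes are compared. The 12 protein-coding members with a run of 10 or more had a median level of 756 CPM in soil shoots, 29.3 CPM in plate roots and 74.2 CPM in soil roots. The other 62 had medians of 155 CPM, 0.813 CPM and 5.52 CPM in the same order of sets. The 12 spread widely, with means from 70.7 to 7595 CPM in soil shoots, 0.262 to 257 CPM in plate roots and 2.80 to 845 CPM in soil roots. Across the 74 members, the length of the longest run and the mean CPM had a Spearman correlation of 0.61 in soil shoots, 0.74 in plate roots and 0.69 in soil roots. Per kb of gene model the correlation was 0.41 in soil shoots, 0.62 in plate roots and 0.55 in soil roots, and on the deposited TPM, which divides by an effective length, it was 0.16, 0.40 and 0.28 in the same order. In soil shoots the order of the medians turned round on the TPM scale, with 115 TPM for the 12 members with long runs and 230 TPM for the other 62, whereas in plate roots (29.2 and 6.14 TPM) and soil roots (111 and 39.6 TPM) it did not. The relation in shoots therefore depends on the scale. The scales per length were added after the data were seen. These are descriptions across genes, which share libraries and base composition and are not independent replicates. The 7 members with runs of at most 4 bases had medians of 11.9 CPM in soil shoots, 0.147 CPM in plate roots and 1.46 CPM in soil roots. At the low end, petG, a small cytochrome b6f subunit, averaged 0.597 CPM in soil shoots and had no read in 27 of 28 plate root and 21 of 29 soil root libraries. A count of 0 allows up to 3 reads, which were worth 0.293 to 0.911 CPM in plate roots and 0.287 to 0.513 CPM in soil roots, for counting error alone.

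**Figure D1:**
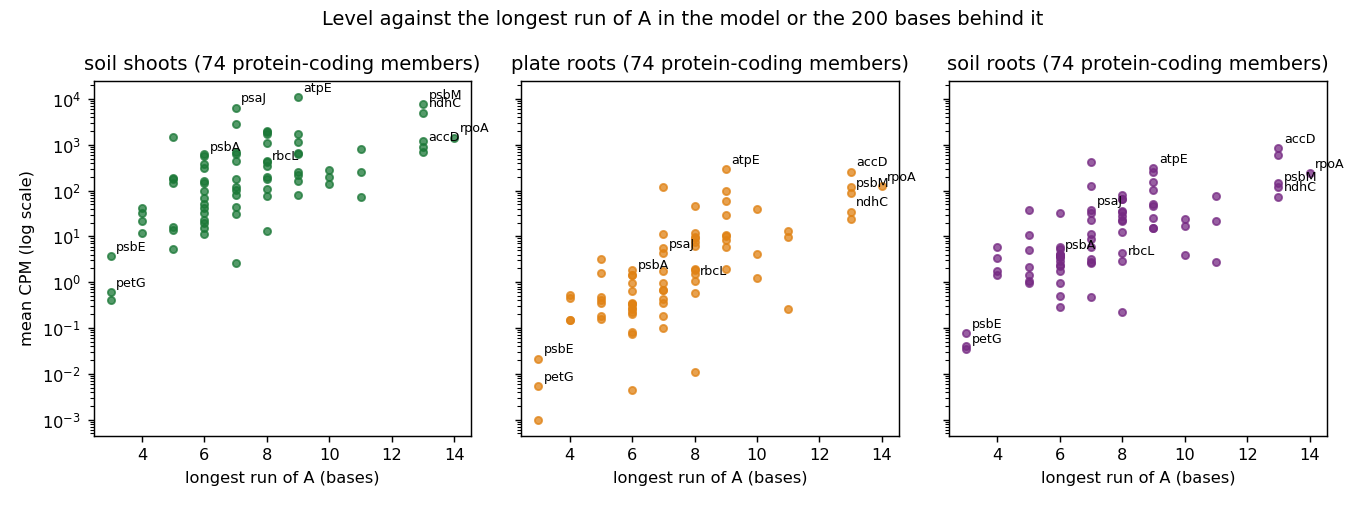
Mean CPM (log scale) of 74 protein-coding chloroplast members against the longest run of A in the gene or the 200 bases behind it, in soil shoots, plate roots and soil roots, 1 point per member. On this scale, not divided by length, rpoA, accD, psbM and ndhC (runs of 13 or 14) sit high and psbE and petG (runs of 3) low; a member without a read in a set is drawn at the lower edge.

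Depth and identity of the libraries were checked next. Assigned reads ran from 4698913 to 8635531 in soil shoots, from 3292996 to 10246421 in plate roots and from 5850010 to 10435932 in soil roots. The summed level of 5 leaf marker genes was 27750 to 45140 CPM in soil shoots, 100 to 207 CPM in plate roots and 18.2 to 187 CPM in soil roots, and that of 3 root marker genes was at most 18.3 CPM in soil shoots. ESB1 had at most 1.21 CPM in esb1-1 plate roots and 2.35 CPM in esb1-1 soil roots, against at least 212 and 123 CPM in WT. SOS3 had 1.07 to 2.33 CPM in sos3-2 plate roots, against 8.29 to 14.1 CPM in WT. RHD6 was likewise below WT in rhd6-3/rsl1-1 plate roots, with 1.91 to 4.93 against 6.52 to 10.3 CPM, with overlap in soil roots. CHX25 and CHX23 had no more than 0.304 CPM in any chx25-3 or WT library, so that they check nothing. A soil shoot library, WT 4x replicate 3, stood apart. Its 23S rRNA made up 5.00% of its chloroplast reads, against 26.9 to 56.9% in the other shoots.

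Chloroplast RNA took a share of reads that differed widely between the sets. In soil shoots the share had a lowest value of 3.70%, a median of 11.4% and a highest of 16.8% (mean 11.7% ± 2.83, SD, n = 29). In plate roots it ran from 0.0467% over a median of 0.220% to 0.727% (mean 0.274% ± 0.206, SD, n = 28). In soil roots it ran from 0.580% over a median of 0.862% to 1.40% (mean 0.913% ± 0.210, SD, n = 29). The shoots lay above all root libraries, while plate roots overlapped soil roots at 0.580 to 0.727%. On the log2 scale the share was 3.65 higher in soil shoots than in soil roots and 2.15 lower in plate roots than in soil roots (difference -2.15). Both gave p = 1e-05, the smallest value that 100000 resamples of a permutation test, stratified by genotype and ploidy and two-sided, can give. In bulk samples fewer cells of a type and less RNA per cell cannot be told apart, and age, medium, day length and pooling differed together between plates and soil.

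**Figure D2:**
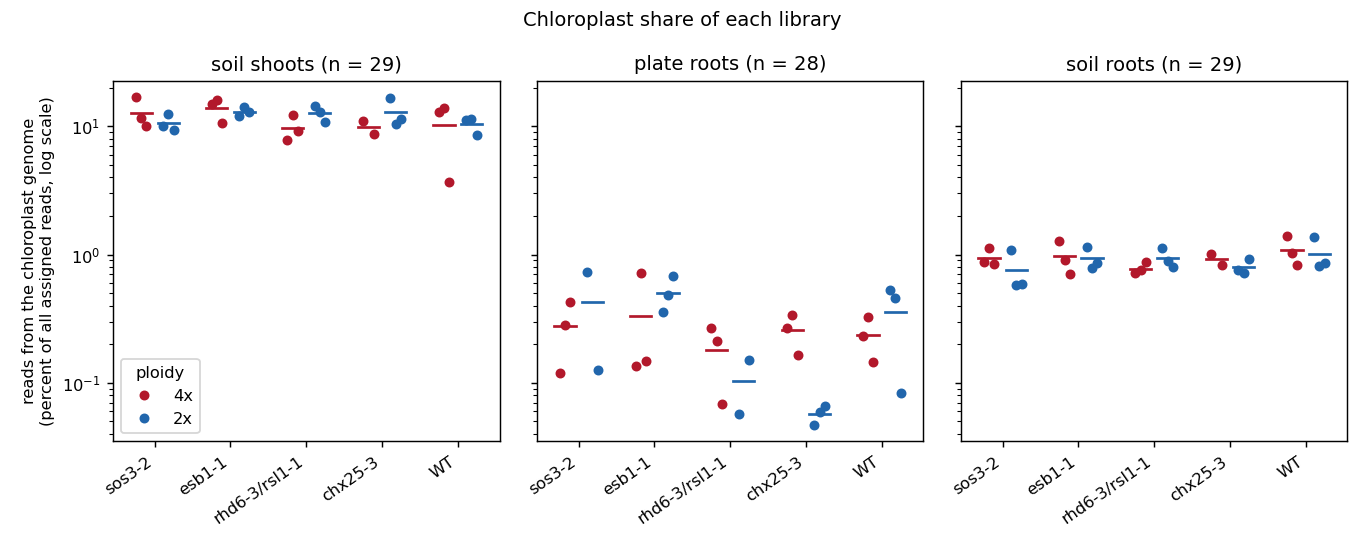
Percent of assigned reads from the chloroplast genome (log scale) in each library, by genotype, for soil shoots, plate roots and soil roots, with 4x to the left of 2x and bars at group means. Shoots sit between 3.70 and 16.8%, above all roots, and the 3 chx25-3 2x plate root libraries sit between 0.0467 and 0.0659%.

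The share moved together with that of mitochondrial RNA. The 122 mitochondrial loci took 0.101 to 0.311% of reads in soil shoots, 0.191 to 1.61% in plate roots and 0.387 to 0.898% in soil roots. Across libraries of a set, the log2 shares of both organelles had a Pearson r of 0.85 (Spearman 0.84, n = 29) in soil shoots, 0.92 (Spearman 0.93, n = 28) in plate roots and 0.86 (Spearman 0.82, n = 29) in soil roots. Each gave p = 1e-05, again the smallest value that 100000 permutations can give, and 2e-05 after Benjamini-Hochberg adjustment over the 6 relations computed. Without the 2 libraries farthest from the median mitochondrial share, r was 0.78 in soil shoots, 0.91 in plate roots and 0.81 in soil roots, and without WT 4x replicate 3 it was 0.81 in soil shoots. Within the libraries of sample sheet 1, read from the numbering of the files, r was 0.98 (n = 9, permutation p = 4e-05) in soil shoots and 0.96 (n = 8, permutation p = 0.00048) in soil roots. Within sheet 2 it was 0.79 (n = 20, permutation p = 4e-05) in soil shoots and 0.75 (n = 21, permutation p = 0.00013) in soil roots, and without the 2 farthest libraries there it was 0.61 in soil shoots and 0.51 in soil roots. Both shares have the same denominator.

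The summed leaf markers showed no such relation. Their log2 level and the log2 chloroplast share had an r of -0.17 (Spearman -0.09, permutation p = 0.40 and 0.63, n = 29) in soil shoots, -0.35 (Spearman -0.35, permutation p = 0.07 and 0.068, n = 28) in plate roots and 0.02 (Spearman 0.06, permutation p = 0.94 and 0.76, n = 29) in soil roots. The lowest adjusted p of these was 0.102. Without the 2 farthest libraries r was -0.15 in soil shoots, -0.29 in plate roots and -0.09 in soil roots. Within sheets it was -0.44 (sheet 1) and -0.11 (sheet 2) in soil shoots and -0.52 and 0.17 in soil roots.

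**Figure D3:**
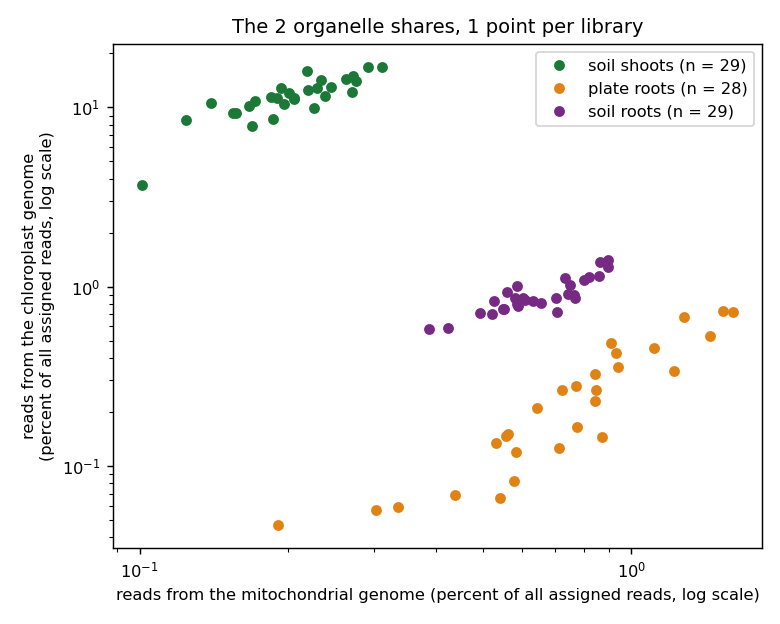
Percent of reads from the chloroplast genome against percent from the mitochondrial genome, both on log scales, 1 point per library, for soil shoots, plate roots and soil roots. In each set the shares rise together (Pearson r 0.85, 0.92 and 0.86 on the log2 scale), and the lowest shoot point is WT 4x replicate 3, with 3.70% chloroplast and 0.101% mitochondrial reads.

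The makeup of chloroplast reads also differed between the sets. The 4 rRNA loci took the largest part of the 12 classes in each, with a mean of 44.8% of chloroplast reads in soil shoots, 35.4% in plate roots and 45.9% in soil roots, most of it from 23S rRNA (rrn23S), a core RNA of the chloroplast ribosome. Photosystem II genes took 9.47% in soil shoots, against 4.41% in plate roots and 1.83% in soil roots. Photosystem I genes took 7.70%, 0.871% and 1.05%. The class that holds accD, clpP and ycf1 took 3.61% in soil shoots but 16.3% in plate roots and 18.2% in soil roots. ATP synthase genes took 11.3% in soil shoots, 12.8% in plate roots and 3.99% in soil roots, most of it from atpE, the epsilon subunit, with 9.64%, 12.6% and 3.40%. The large Rubisco subunit, rbcL, took 0.298% in soil shoots, 0.0514% in plate roots and 0.0316% in soil roots.

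Per length, as the deposited TPM measures it, small genes led. In soil shoots these were psbM with a mean of 340660 TPM, psaJ of photosystem I with 239180, rpl32 of the ribosome with 54226, psaI of photosystem I with 17823, atpE with 15297, psbL of photosystem II with 12827, the tRNA locus ATCG00030 with 11931 and ndhC with 9224. In plate roots the tRNA locus ATCG00010 led with 21061 TPM, followed by psbM with 12927, rpl32 with 4436, 5S rRNA with 1976, atpE with 1325, rps19 with 1104, trnS (ATCG00090) with 1059 and ATCG00030 with 965. In soil roots ATCG00010 led with 47400 TPM, followed by psbM with 17908, rpl32 with 7942, 5S rRNA with 5999, trnS with 5006, psaI with 4711, psaJ with 4473 and ATCG00030 with 3702. The order rests on effective lengths, which Salmon set to about 4 to 5 bases for genes such as ATCG00010 (3.94) and psbM (4.62), so that a single read there weighs far more than in psbA (813). Chloroplast loci took 78.9% of all TPM in soil shoots, 4.94% in plate roots and 11.9% in soil roots.

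Members were then compared between sets in a single edgeR fit over the 86 libraries, with loci kept at 2 CPM or more in 6 or more libraries. Of the 114 members 95 passed, and 17 of the 19 that did not were tRNAs. A call needed an adjusted p below 0.05 in the quasi-likelihood test and a log2 fold change of at least 0.5. Members that pass only through shoots had to be higher there, and 17 of the 95 would not have passed in soil roots alone. TMM scaling added 1.08 to the log2 fold change of shoots over soil roots and 0.13 to that of plate roots over soil roots, relative to ratios of CPM.

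In soil shoots 94 of the 95 members rose over soil roots and 1 fell, where 28.6% of the 20347 loci tested were called higher and 36.7% lower. Of the 78 members that passed in soil roots alone, 77 rose and 1 fell. The median log2 fold change was 4.79 over the members and -0.15 over all loci, and in 71 members the 29 shoot libraries did not overlap the 29 soil root libraries, or 74.7%, against 47.5% of all loci tested. Of the 78 members, 61 did not overlap and the median was 4.63. The photosynthetic classes had the largest medians, but some of their members passed only through the shoots. Rubisco's rbcL changed by 7.99, the 15 photosystem II genes had a median of 7.28, the 5 photosystem I genes 6.88, the 6 ATP synthase genes 6.23, the 9 NDH genes 5.70 and the 4 cytochrome b6f genes that passed 5.23. The polymerase genes (3.71, 4 genes), ribosomal protein genes (3.67, 20 genes) and the remaining named genes (3.39, 9 genes) rose less, and the 4 rRNAs had a median of 4.21. Over members that passed in soil roots alone the photosynthetic classes still lay above these, with medians of 7.42 (10 photosystem II genes), 7.40 (3 photosystem I genes), 6.24 (5 ATP synthase genes), 5.73 (8 NDH genes) and 5.30 (3 cytochrome b6f genes), while all polymerase and ribosomal protein genes had passed there.

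The change was largest for psaJ. It had 3709 to 9640 CPM in soil shoots (median 6448), against 21.2 to 59.9 CPM in soil roots (median 35.4), and its log2 fold change was 8.55 ± 0.33 (SE, adjusted p = 2.81e-34). All shoot libraries lay above all root libraries. The next were psbC, the CP43 antenna protein of photosystem II, with 8.47 ± 0.26 (adjusted p = 6.16e-40), and psbH, a small photosystem II phosphoprotein, with 8.36 ± 0.25 (adjusted p = 5.58e-46), which passed the filter through the shoots and not in soil roots alone. The core protein D1 of photosystem II, psbA, had 199 to 885 CPM in soil shoots (median 548), against 1.73 to 6.96 CPM in soil roots (median 3.88), a log2 fold change of 8.22 ± 0.22 (adjusted p = 6.05e-43). For rbcL the values were 114 to 527 CPM in soil shoots (median 356), against 0.882 to 5.95 CPM in soil roots (median 2.80), with 7.99 ± 0.24 (adjusted p = 1.54e-40). Neither overlapped between the tissues. Per length, psbA averaged 145 TPM and rbcL 61.3 TPM in soil shoots.

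At the other end, accD was at nearly the same CPM in both tissues, with 445 to 1491 CPM in soil shoots (median 881), against 579 to 1061 CPM in soil roots (median 855). The groups overlapped, and the log2 fold change of 1.18 ± 0.17 rests largely on the scaling named above. The tRNA locus ATCG00010 had 4.59 to 260 CPM in soil shoots (median 51.7), against 128 to 433 CPM in soil roots (median 273). It was the 1 member that fell, by 0.88 ± 0.24 on the log2 scale (adjusted p = 0.000721), and its groups overlapped. The plastid protease subunit clpP (2.98 ± 0.17) and the ribosomal protein rpl20 (2.18 ± 0.15) were also among the members that rose least. The 2 loci with the symbol ycf1 are singly uncertain, because the inverted repeat of the genome holds near-identical copies. Their sum averaged 1484 CPM in soil shoots and 616 CPM in soil roots.

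**Figure D4:**
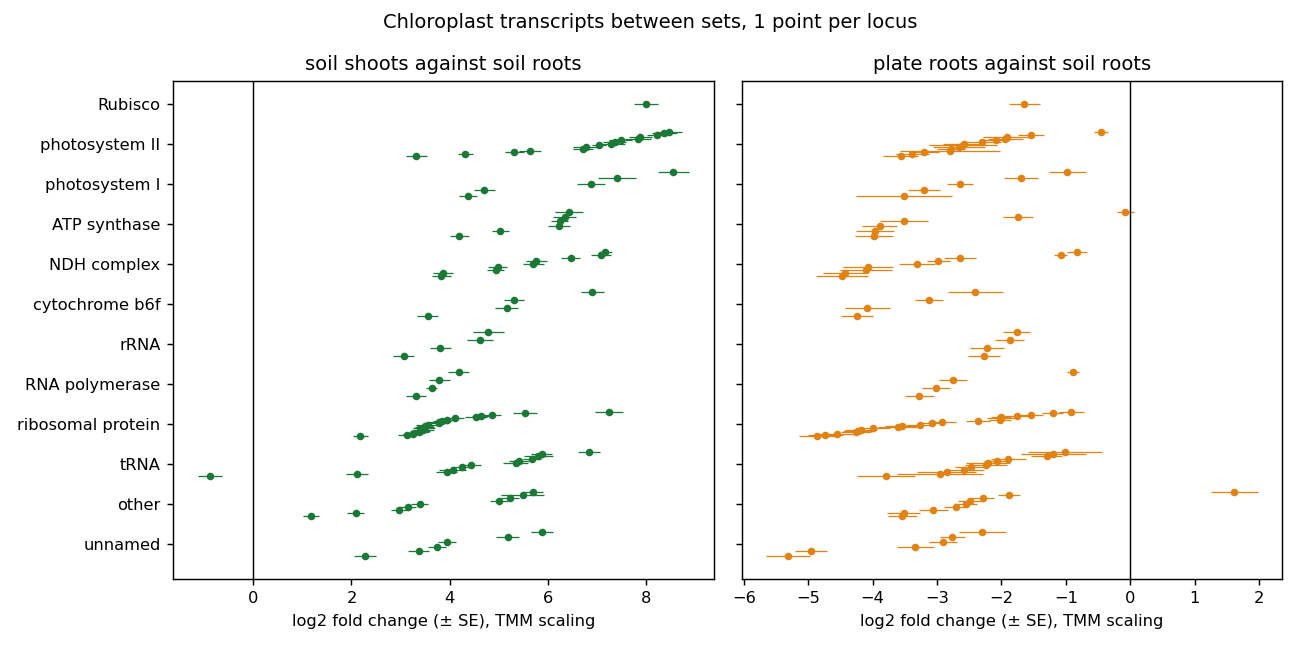
Log2 fold change (± SE, edgeR, TMM scaling) of each chloroplast locus tested, by class, for soil shoots against soil roots (left) and plate roots against soil roots (right). Photosynthetic classes sit farthest right in the shoot comparison, up to 8.55, while in plate roots nearly all loci lie below 0; psbE, with reads in only 4 of 28 plate root libraries, has no usable error there and is left out of the right panel.

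Nuclear genes for the chloroplast were counted in the same fit. All 8 measured nuclear partners of plastid subunits rose in soil shoots over soil roots, by 8.16 to 11.35 (median 11.04), among them the small Rubisco subunit RBCS1A with 11.22 and the photosystem I subunit PSAD1 with 10.91. ATPC1, a ninth gene of this list, was not analysed here. Of 21 genes of the plastid transcription machinery 20 rose and 0 fell (median 2.55), and RPOTmp, a phage-type polymerase, was not called (0.06 ± 0.12, adjusted p = 0.642). The sigma factor SIG4 averaged 17.7 CPM in soil shoots and 0.0400 CPM in soil roots, a log2 fold change of 9.59. SIG1, SIG2 and SIG6 rose by 4.90, 3.67 and 5.01. All 5 genes of plastid RNA maturation and decay rose, by 1.39 to 10.7, with CSP41A, an endoribonuclease, at 291 CPM in soil shoots and 0.407 CPM in soil roots. SIG4 (at most 0.278 CPM in soil roots) and CSP41A (at most 1.90 CPM) passed the filter through the shoots and not in soil roots alone. They had to be higher in shoots, and the size of their change rests on root levels near 0. The 5 leaf markers rose and the 3 root markers fell.

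In plate roots 90 of the 95 members fell against soil roots and 1 rose, where 24.4% of loci were called lower and 23.2% higher. Of the 78 that passed in soil roots alone, 75 fell, and of the 49 that passed in plate roots alone, 46 fell and 1 rose. The median log2 fold change was -2.66 over the members and -0.04 over all loci, and in 18 members, or 18.9%, plate roots and soil roots did not overlap, against 8.73% of all loci tested. Ribosomal protein genes (median -3.17), ATP synthase genes (-3.70) and NDH genes (-3.31) were lowest among the classes of 5 or more measured, and rRNAs (-2.05) and rbcL (-1.64) lay higher.

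Among the members that fell most were ATCG00870 and ATCG00905, both unnamed, and the ribosomal protein genes rpl16 and rpl22. ATCG00870 changed by -5.32 ± 0.34 (adjusted p = 4.25e-23) and ATCG00905 by -4.95 ± 0.25 (adjusted p = 2.39e-28). The gene rpl16 had 0 to 9.34 CPM in plate roots (mean 1.98 ± 2.51, SD, n = 28), against 18.5 to 57.2 CPM in soil roots (mean 36.2 ± 9.25, SD, n = 29), with a log2 fold change of -4.74 ± 0.27 (adjusted p = 8.52e-25). No plate root library reached the lowest soil root library. For rpl22 (-4.56 ± 0.26) the groups did not overlap either. By contrast, psbM, with 18.5 to 170 CPM in plate roots (median 90.6) against 73.6 to 187 CPM in soil roots (median 123), changed by -0.45 ± 0.10 and was not called, and atpE had a median of 310 CPM in plate roots and 288 CPM in soil roots (-0.08 ± 0.13, adjusted p = 0.614). Photosynthetic psbA (median 1.21 CPM in plate roots and 3.88 CPM in soil roots) changed by -1.54 ± 0.20 (adjusted p = 5.85e-10), and rbcL (0.795 and 2.80 CPM) by -1.64 ± 0.24 (adjusted p = 1.39e-08). The 1 member that rose was the short ycf1 locus ATCG01000 (1.62 ± 0.37). Summed over both of its loci, ycf1 averaged 162 CPM in plate roots and 616 CPM in soil roots.

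Nuclear genes for the chloroplast moved in both directions in plate roots. Of the 8 partner genes 4 rose and 3 fell against soil roots, with PSAD1 higher by 3.09 and RBCS1A by 1.66 and RBCS2B lower (-1.66). Of the 21 transcription machinery genes 3 rose and 6 fell (median -0.23), and of the 5 RNA maturation genes 1 rose, CSP41A (1.47). Of the 5 leaf markers 3 rose and 2 fell, and of the 3 root markers 1 rose and 2 fell. Mitochondrial RNA had a median share of 0.775% in plate roots and 0.630% in soil roots.

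Ploidy was compared next, over the 5 genotypes in each set. The chloroplast share in 4x plants had a lowest value of 3.70%, a median of 11.3% and a highest of 16.8% in soil shoots, against 8.55%, 11.4% and 16.7% in 2x plants. In plate roots it was 0.0688%, 0.230% and 0.718% in 4x plants, against 0.0467%, 0.151% and 0.727% in 2x plants. In soil roots it was 0.706%, 0.868% and 1.40% in 4x plants, against 0.580%, 0.861% and 1.37% in 2x plants. The ranges overlapped in each set. The log2 difference was -0.14 in soil shoots (p = 0.419), 0.25 in plate roots (p = 0.551) and 0.09 in soil roots (p = 0.440), by two-sided exact permutation tests within genotypes, and all 3 had an adjusted p of 0.551. Among libraries of sheet 2 alone it was -0.18 in soil shoots (exact permutation p = 0.436) and 0.18 in soil roots (exact permutation p = 0.124). Plate roots were all on sheet 1. Without WT 4x replicate 3 the log2 difference in the full share was -0.01 in soil shoots. The share itself differed by sheet, with means of 13.7% on sheet 1 and 10.7% on sheet 2 in soil shoots. In soil roots these means were 1.13% and 0.831%. All grouped 4x soil libraries of rhd6-3/rsl1-1 and chx25-3 were on sheet 2, while their 2x groups also held libraries of sheet 1. In soil, ploidy and sheet are therefore partly confounded in these genotypes.

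Single members moved little with ploidy over the genotypes. In soil shoots 95 of the 114 members passed the filter within the set, 0 were called higher and 1 lower in 4x than in 2x, where 7.48% of loci were called higher and 3.73% lower. The called member was rps19 of the small ribosomal subunit, with 130 to 942 CPM in 4x shoots (median 558), against 554 to 1078 CPM in 2x shoots (median 689). The groups overlapped, with WT 4x replicate 3 the lowest. The log2 fold change was -0.53 ± 0.17 (adjusted p = 0.0347), and leaving out any 1 of 9 libraries, WT 4x replicate 3 among them, ended the call. So did the sample sheet or the library number of the file numbering as a term (both -0.47, short of the fold threshold) and the fit over all libraries (adjusted p = 0.0845). Of the 95 members 93 had a negative log2 fold change (median -0.29, against -0.01 over all loci), while 15.8% had an unadjusted p below 0.05, against 29% of all loci. Without WT 4x replicate 3 the median was -0.21 and 91 were negative. Among nuclear genes 2 of the 8 partners and 1 of the 5 leaf markers fell, and 0 of the 21 transcription machinery genes were called.

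In soil roots 78 members passed, and 1 was called higher and 0 lower in 4x than in 2x, where 0.714% of loci were called higher and 0.849% lower. This was rpl14 of the large ribosomal subunit, with 3.74 to 9.87 CPM in 4x roots (median 6.88), against 2.57 to 7.57 CPM in 2x roots (median 4.33). The groups overlapped, and the log2 fold change was 0.56 ± 0.14 (adjusted p = 0.0230). Without esb1-1 4x replicate 2 it fell just short of the fold threshold (0.50), and without chx25-3 4x replicate 2 of the p threshold (adjusted p = 0.0732). Of the 78 members 71 had a positive log2 fold change (median 0.21, against 0.00 over all loci), and 38.5% had an unadjusted p below 0.05, against 16.7% of all loci. The genes rps3, rpoC2, rpoA, petA and the unnamed ATCG01050 had an adjusted p below the threshold with log2 fold changes of 0.21 to 0.36, which were too small to be called. For psbA it was 0.50 ± 0.17 and for rbcL 0.29 ± 0.21.

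In plate roots 49 members passed and 0 were called, with 3 at an unadjusted p below 0.05, where edgeR called 0.593% of loci in either direction. DESeq2 also called 0. Their median log2 fold change was 0.16, with 32 of the 49 above 0. Of the nuclear lists, 0 of 19 transcription machinery genes, 0 of 6 partners, 0 of 4 RNA maturation genes and 0 of 4 leaf markers that passed were called with ploidy in plate roots. In soil roots these were 0 of 20, 0 of 8, 0 of 4 and 0 of 5, although the leaf markers had a median log2 fold change of 0.89 and the partners of 0.69, and 1 of the 3 root markers fell. The part of leaf-type RNA in the soil root values was not tested.

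In the fits per set without further terms, a ploidy difference within a single genotype was called for chloroplast members in chx25-3 plate roots only, out of 15 contrasts. All 49 members tested there had a positive log2 fold change (median 2.06), 5 were called higher and 0 lower in 4x, where 2.07% of loci were called higher and 1.67% lower. The chloroplast share was 0.265%, 0.338% and 0.164% in chx25-3 4x plate roots, against 0.0467%, 0.0593% and 0.0659% in chx25-3 2x plate roots. The groups did not overlap. The lowest of these libraries was also the least deeply sequenced of the 86, and its share had a 95% Wilson interval of 0.0444 to 0.0491%, for counting error alone.

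The called members were accD, ATCG00010, atpE, psbM and ndhC. For accD the levels were 234, 377 and 159 CPM in chx25-3 4x, against 11.8, 35.2 and 53.6 CPM in chx25-3 2x, a log2 fold change of 2.85 ± 0.77 (adjusted p = 0.0412). ATCG00010 had 108, 153 and 114 CPM in 4x, against 8.20, 13.2 and 33.8 CPM in 2x, with 2.66 ± 0.62 (adjusted p = 0.0246). The 4x libraries lay above the 2x libraries for each, and the same held for the next 3. All 5 were picked by their call on these same values, so that this separation adds no support. The gene atpE had 310, 374 and 269 CPM in 4x, against 28.8, 83.6 and 94.4 CPM in 2x, with 2.13 ± 0.50 (adjusted p = 0.0251). For psbM they were 105.9, 91.9 and 87.1 CPM in 4x, against 18.5, 28.1 and 31.6 CPM in 2x, with 1.79 ± 0.38 (adjusted p = 0.0161). For ndhC they were 50.99, 47.9 and 30.8 CPM in 4x, against 9.41, 14.5 and 12.1 CPM in 2x, with 1.76 ± 0.42 (adjusted p = 0.0253). Of the 5, accD, psbM and ndhC have runs of 13 A and atpE has a run of 9. For ATCG00010, which was matched only to the tRNA class, no run was looked for. Among the members tested here and not called were rpoA with a run of 14 and rpoC2 and the long ycf1 locus ATCG01130 with runs of 13. Members with longer runs also tended to have more reads in plate roots, and the part of the runs in these calls was not tested.

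The call rested on few libraries. Without chx25-3 2x replicate 1, 2x replicate 2 or 4x replicate 2, 0 members were called, and without chx25-3 4x replicate 1 the count was 3. It was 8 to 10 without WT 2x replicate 3, esb1-1 4x replicate 2, rhd6-3/rsl1-1 4x replicate 3 or either sos3-2 2x library. Mitochondrial RNA took 0.848%, 1.22% and 0.776% of reads in chx25-3 4x, against 0.191%, 0.336% and 0.541% in chx25-3 2x, and its part in the result was not tested. The summed leaf markers were at 188, 117 and 135 CPM in chx25-3 4x, against 197, 207 and 128 CPM in chx25-3 2x. Of the 19 transcription machinery genes that passed 0 were called higher and 1 lower in chx25-3 4x.

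**Figure D5:**
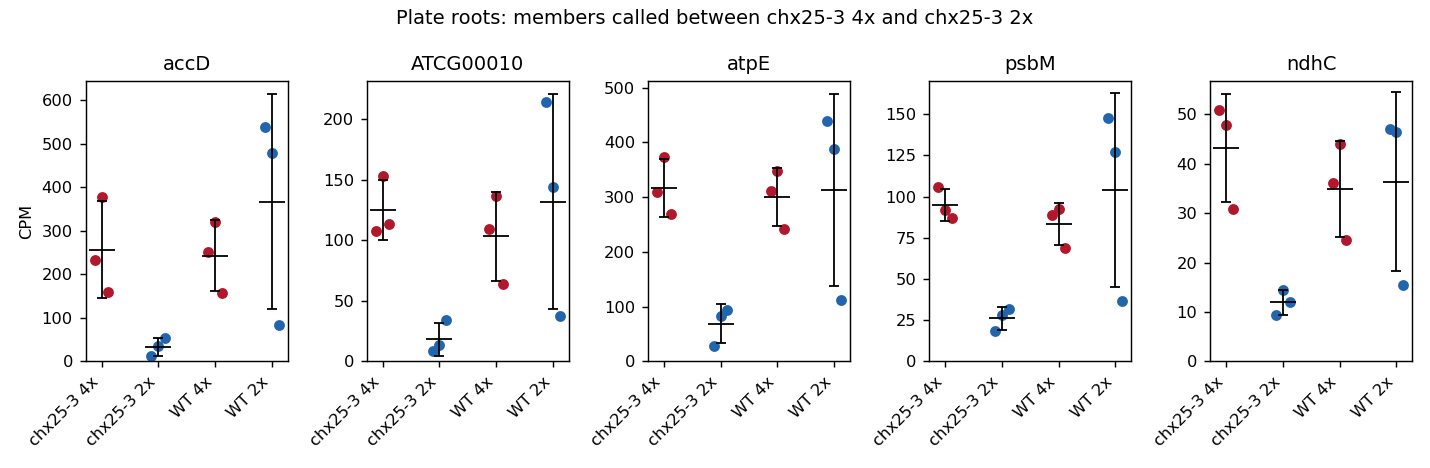
CPM of the 5 chloroplast members called between chx25-3 4x and chx25-3 2x in plate roots, 1 point per library (red 4x, blue 2x) with mean ± SD, for chx25-3 4x, chx25-3 2x, WT 4x and WT 2x (3 libraries each). The chx25-3 2x libraries are the low ones, with accD at 11.8 to 53.6 CPM, and WT 2x replicate 3, at 83.1 CPM, stands below the other WT libraries.

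In WT the same 5 members had log2 fold changes of -0.60 to -0.06 between 4x and 2x plate roots and were not called. The difference between the ploidy effects of chx25-3 and WT was 3.45 ± 1.04 for accD (adjusted p = 0.304) and 2.11 ± 0.52 for psbM (adjusted p = 0.229). Of the 49 members 0 were called for it, although 55.1% had an unadjusted p below 0.05, against 10.7% of all loci, so that the ploidy effects were not shown to differ. Over the 12 such differences in the 3 sets 0 members were called, where 0.0137% of the loci tested were called in either direction, pooled over these contrasts. WT 2x was itself uneven in plate roots, with a chloroplast share of 0.532%, 0.456% and 0.0828%.

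In the other 14 contrasts 0 members were called by edgeR between ploidies, where 0.382% of the loci tested were called in either direction, pooled over these contrasts. The nearest were sos3-2 soil roots, where 38 of 78 members (48.7%) had an unadjusted p below 0.05, against 10.54% of all loci. DESeq2 called 13 members higher in 4x there, against 0.29% of all loci, and edgeR called 7 with the sample sheet as a term and 3 with the library number. For these edgeR fits the share of all loci called is not given here, so that the counts stand without a background. The chloroplast share in sos3-2 soil roots was 0.846 to 1.12% in 4x and 0.580 to 1.09% in 2x. In the remaining contrasts 0 to 15 members had such a p, the most in rhd6-3/rsl1-1 soil shoots (15.8%, against 20.6% of all loci). DESeq2 called 2 members lower in 4x in rhd6-3/rsl1-1 soil shoots, against 3.56% of all loci, and 1 lower in WT soil shoots, against 0.978%. For rhd6-3/rsl1-1 and chx25-3 in soil, ploidy is partly confounded with the sample sheet, as given above. With the replicate number as a term, edgeR also called members within single genotypes in soil roots and in soil shoots, as counted in the closing section.

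Mutants were compared with WT over both ploidies. The log2 difference in chloroplast share was largest in plate roots, at -1.06 for chx25-3 (p = 0.160) and -1.03 for rhd6-3/rsl1-1 (p = 0.175), by two-sided exact permutation tests within ploidy. For sos3-2 it was 0.14 and for esb1-1 0.49, which was 0.0575 without WT 2x replicate 3. In soil shoots the largest was that of esb1-1 (0.49), with 10.6 to 15.9% in esb1-1 and 3.70 to 13.995% in WT, and in soil roots the 4 differences were between -0.32 and -0.14. Without WT 2x replicate 1 those in soil roots were -0.20 for sos3-2, -0.0202 for esb1-1, -0.15 for rhd6-3/rsl1-1 and -0.14 for chx25-3. None of the 12 tests, which share the WT libraries within a set, had an adjusted p below 0.43.

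Of the single members 4 were called, all lower in chx25-3 than in WT plate roots, where 2.01% of loci were called lower and 4.56% higher. These were the ribosomal protein genes rps2, rps19 and rpl20 and the short ycf1 locus. The gene rps2 had a lowest value of 0.292, a highest of 7.61 and a mean of 2.39 CPM in the 6 chx25-3 libraries, against 0.946, 12.7 and 7.53 CPM in the 6 WT libraries (log2 fold change -2.24 ± 0.68, adjusted p = 0.0422). For rps19 (-1.73 ± 0.53, adjusted p = 0.0440) the means were 24.8 CPM in chx25-3 and 75.6 CPM in WT, and for rpl20 (-1.59 ± 0.46, adjusted p = 0.0342) 12.7 and 31.1 CPM. The locus ATCG01000 (-0.85 ± 0.26, adjusted p = 0.0398) was not called once both ycf1 loci were summed. The groups overlapped for each of the 4. Without WT 2x replicate 3, the library low in chloroplast RNA, 17 members were called, and without either sos3-2 2x library 12, without chx25-3 4x replicate 1 it was 9 and without esb1-1 4x replicate 2 it was 7. Without chx25-3 4x replicate 2, 1 was called. Without WT 2x replicates 1 or 2, WT 4x replicates 1 or 2, chx25-3 2x replicates 1 or 2 or chx25-3 4x replicate 3, 0 were called. In the other 11 contrasts of a mutant with WT 0 members were called by edgeR, where 2.1% of the loci tested were called in either direction, pooled over these contrasts. At an unadjusted p below 0.05 stood 0 to 20 members in these contrasts, most in rhd6-3/rsl1-1 plate roots (40.8%, against 27.9% of all loci), where DESeq2 called 2 of 49 members and 5.95% of all loci lower.

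Members also differed in how evenly they were measured across the 29 soil shoot libraries. The coefficient of variation of CPM had a median of 32.6% over the 95 members that passed. The most even were ndhC, with 3906 to 6430 CPM (13.4%), and rps4, with 534 to 1135 CPM (19.8%). The least even were psbJ, a small photosystem II subunit at a low 0.724 to 25.3 CPM (105.6%), and the tRNA locus ATCG00010 (88.8%). Among well-read genes psaB, a reaction centre protein of photosystem I, stood out after its values were seen, with 118 to 7795 CPM (79.7%), whereas psbA varied by 30.9% and rbcL by 31.1%.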

How the data were processed

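RNA of 88 libraries was measured by QuantSeq 3′ mRNA sequencing, and 2 libraries whose title and genotype label disagree entered no comparison. The authors quantified reads with Salmon, and the deposited files hold its expected counts (estimated counts per transcript, not normalised) and TPM, which the authors' tool scales by effective length. The Salmon version, transcript set and genome build are not given in the sources used here. Transcripts were summed per locus and rounded to whole counts. Depth per library and 95% Wilson intervals cover counting error only.

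The RefSeq plastid table (TAIR10.1) holds no ATCG identifiers. Members were therefore named by spliced length (71 unique, 13 by length and neighbours, 23 by length as a tRNA only), 1 name came from the study and 6 loci stayed unnamed. The assignment was checked by the order of the genes, and single names are inferred.

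Loci that reached 2 CPM in 6 or more libraries entered edgeR 4.0.16 (R 4.3.3; glmQLFit and glmQLFTest, TMM), 1 fit per set and 1 over 86 libraries for the sets. P-values were adjusted (Benjamini-Hochberg) over all loci tested, and a call needed both an adjusted p under 0.05 and a log2 change of 0.5 or more in either direction. The script was tested on simulated data. Shares were compared by permutation on the log2 scale, within strata, with scipy 1.17.1. Alternatives were DESeq2 1.42.0, limma 3.58.1 (voom), no filter, a fit over all libraries, replicate number, sample sheet and library number as terms, and leaving out each library. Replicates came from 1 experiment. Named members were those called within sets, the extremes between sets, and psbA and rbcL. A member among the extremes is not reported here. Members and lists were chosen with earlier results of these data known.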

Additional observations from a re-analysis of the deposited data

Results flagged for a closer look

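A soil shoot library that the labels put in no group, because its title and its genotype label disagree, had 14.997% of its reads from the chloroplast genome. It was picked out because it lies outside the comparisons and above the WT 2x soil shoots, which had at most 11.3%. It lies within the range of the grouped soil shoots, 3.70 to 16.8%. The soil root library without a group had 1.28%, within the 0.580 to 1.40% of the grouped soil roots.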

How the results depend on the processing

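Counts of chloroplast members called in plate roots moved most. Within single genotypes 5 were called between ploidies, against 15 in a fit over all libraries and 15 with DESeq2. Against WT 4 were called, with 24 in the fit over all libraries, 8 with DESeq2, 0 with limma-voom and 1 with the replicate block, and the difference of ploidy effects gave 5 in the fit over all libraries and 1 with DESeq2 in place of 0. In soil roots the ploidy average gave 0 in the fit over all libraries and 2 without the filter in place of 1, and single genotypes gave 13 with DESeq2, 8 with the replicate block, 7 with the sample sheet and 3 with the library number in place of 0. In soil shoots the ploidy average gave 2 with DESeq2 and 2 with the replicate block in place of 1, single genotypes gave 5 in the fit over all libraries, 1 without the filter, 3 with DESeq2, 7 with the replicate block, 1 with the sample sheet and 1 with the library number in place of 0, and mutants gave 2 with the replicate block in place of 0. The cause was not tested. Apart from the DESeq2 shares given above for single contrasts, the share of all loci called in these alternative fits is not given here. These counts, and those with a library left out, therefore stand without a background. The labels tie the replicate numbers to no shared batch or day. Same-numbered pairs correlated above 0.1 in 28.8% of pairs in plate roots, 57.1% in soil roots and 86.5% in soil shoots. As this was not every pair, they were not taken as pairs, and a shared batch was not tested. In soil the replicate 1 libraries were on sheet 1, except those of rhd6-3/rsl1-1 4x, and nearly all others were on sheet 2. Replicate number there largely follows the sheet, and the main fits in soil hold no term for such a shared structure. As a hint from the data, the median correlation of same-numbered libraries was 0.02 in plate roots, 0.13 in soil roots and 0.33 in soil shoots. For libraries of other numbers it was -0.0055, -0.071 and -0.15. Over the chloroplast members alone it was 0.014 against 0.00048 in plate roots, 0.33 against -0.18 in soil roots and 0.18 against -0.087 in soil shoots. In the same order of sets, 11 of 28, 22 of 29 and 28 of 29 libraries correlated best with their own number. For rps19 in soil shoots the call was lost with the sample sheet or library number as a term and in the fit over all libraries, and the 1 member called in each of these was ATCG00620.

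Without single libraries the counts ran from 0 to 1 (ploidy average), 0 to 12 (single genotypes), 0 to 24 (mutants) and 0 to 1 (difference of ploidy effects) in plate roots, from 0 to 1, 0 to 1, 0 to 0 and 0 to 0 in soil roots, and from 0 to 4, 0 to 3, 0 to 0 and 0 to 0 in soil shoots. The highest plate root count against WT was reached without WT 2x replicate 3 and the highest soil shoot count without WT 4x replicate 1. The ploidy difference of the chloroplast share in plate roots was -0.03 percentage points (-0.0338, exact permutation p = 0.654) on the linear scale. As percent of TPM, exact permutation gave a log2 difference of 0.20 (0.1955, adjusted p = 0.0308) in soil roots. In soil shoots this log2 difference was -0.06 (-0.0591, adjusted p = 0.0308), by the same test. The mean percent of TPM was 12.6 in 4x and 11.1 in 2x soil roots, and 77.2 in 4x and 80.4 in 2x soil shoots. Without single libraries the log2 difference in the share of reads ran from -0.00292 to 0.50 in plate roots. For sos3-2 against WT the share ran from -0.49 to 0.78 in plate roots and from -0.0382 to 0.44 in soil shoots, for rhd6-3/rsl1-1 from -0.0970 to 0.38, for chx25-3 from -0.0861 to 0.39 and for esb1-1 from 0.18 to 0.66 in soil shoots, where the low ends came without WT 4x replicate 3. Depth limits the members near 0 in plate roots, where a library held as few as 1538 chloroplast reads.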
